A study of Rattus norvegicus with 9 samples.

Results

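Nuclear speckle genes were followed in primary rat cortical neurons under electrical stimulation. They are 10 genes (Leng8, Akap8l, Clasrp, Pnisr, Sfswap, Srrm2, Pabpn1, Srrm1, Son and Luc7l) out of 32623 entries in the expression table, taken by gene symbol, and each symbol matched 1 row. The neurons came from the cortex of wild-type Wistar rat embryos at embryonic day 16 to 18 and were plated on glass coated with indium tin oxide, which conducts current. Alternating current stimulation (ACS) was given at 3 µA and 20 Hz for 20 min per day over 7 days. Direct current stimulation (DCS, called DES in the sample labels) had the same current and duration, and its label also carries the figure of 20 Hz, which the study's text gives for ACS alone. Control neurons had no current and sat on the same coated glass. The labels place the cells at day 7 in vitro, whereas the growth protocol runs to day 14. Polyadenylated RNA was sequenced in 3 libraries per group, 9 in all, and no source says that the libraries of a group were separate cultures, so each p-value measures only the spread between these libraries.

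Nuclear speckles are bodies in the nucleus in which splicing factors gather, and many of their proteins carry stretches rich in serine and arginine (SR and SR-related proteins). Son and Srrm2 form the scaffold of the speckle, and Srrm1 is the partner of Srrm2 in pre-mRNA splicing. In neurons, which splice many transcripts in forms particular to the brain, SR and SR-related proteins take part in choosing exons, in RNA export and in holding incompletely spliced RNA in the nucleus. The 10 genes were chosen by their values in ACS against control in these same libraries, so everything said below of these 10 on ACS against control is a description without a test. The working name of the set is speckle proteins changed by alternating current. Its part on change held, for RNA levels, in 7 of the 10 genes, since Srrm1, Son and Luc7l did not pass the threshold. The table's own annotation gives the Gene Ontology term nuclear speck to 5 of the 10 (Akap8l, Pnisr, Srrm2, Srrm1 and Son). It does not give the term to Leng8, Clasrp, Sfswap and Pabpn1, which are among the 7, or to Luc7l.

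The libraries were alike, with pairwise correlations of log2(FPKM + 0.1) between 0.969 and 0.979 across genes, where FPKM is the authors' fragment count divided by exon length and library size. Estimated counts totalled 49039412 to 52938628 in ACS libraries, 52370330 to 68133858 in DCS libraries and 53910745 to 68690760 in control libraries, so every ACS library was smaller than every control library. All 10 genes passed the filter on low counts, which kept 16284 genes, and each had at least 1618 estimated counts in every library. The summed neuronal markers (Tubb3, Map2, Rbfox3, Snap25, Syt1, Stmn2) stood at 5297 to 5556 CPM in ACS, 5152 to 5437 CPM in DCS and 5071 to 5635 CPM in control libraries, where CPM is the count relative to the library's total after TMM, edgeR's library scaling. The sum of 6 markers of progenitors and dividing cells (Sox2, Pax6, Nes, Hes5, Mki67, Top2a) was 536 to 613 CPM in ACS, 593 to 609 CPM in DCS and 629.8 to 670.0 CPM in control libraries, with 2 of the 6 called lower in ACS than in control (1.33% of all tested genes were). None of the 6 was at 0 in all libraries. The sum of 6 microglial markers was 171 to 188.21 CPM in ACS, 182 to 198 CPM in DCS and 188.26 to 196 CPM in control libraries. The gap between ACS and control was narrow, and the median log2 fold change of the 6 was -0.02. Of the 6, 0 were called higher and 0 lower in ACS than in control, beside 2.83% and 1.33% of all tested genes. The sums of the marker lists of excitatory and GABAergic neurons, astrocytes (618 to 956 CPM in ACS and 801 to 877 CPM in control libraries), the oligodendrocyte lineage, endothelial cells and meningeal fibroblasts overlapped between ACS and control. Of single markers, 1 of 6 astrocyte markers (median log2 fold change 0.23) and 1 of 6 neuronal markers (median 0.05) were called higher in ACS than in control, where 2.83% of all tested genes were. The part of these cells, or of depth, in the values below was not tested. These are bulk samples, in which fewer cells of a type and less RNA per cell cannot be told apart.

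**Figure D1:**
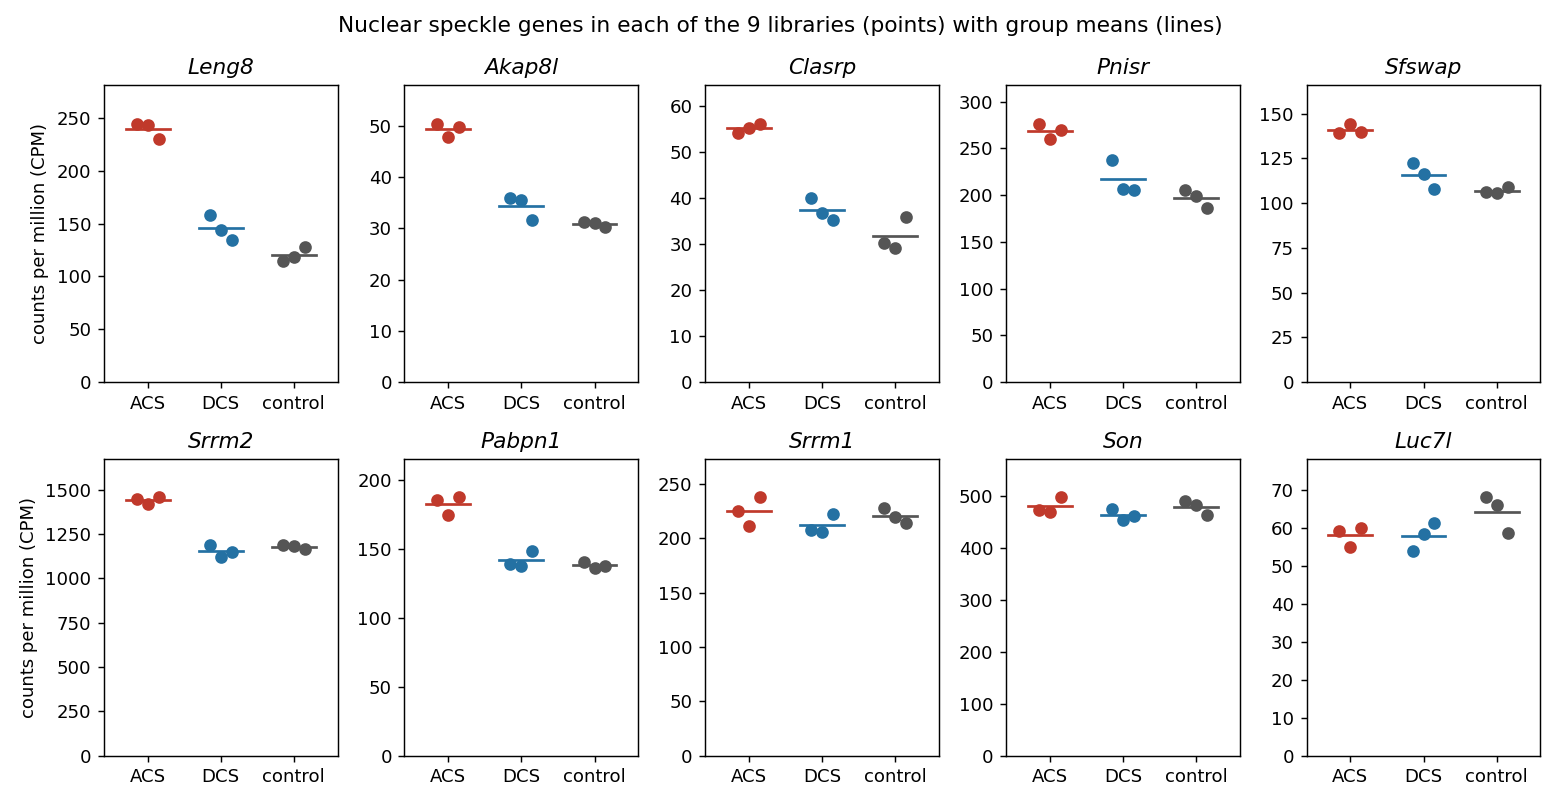
Expression in CPM (y axis, from 0) of the 10 genes in each library (points) with the mean of each group (lines), ACS, DCS and control from left to right. In 7 panels every ACS point lies above every control point, and in the panels of Srrm1, Son and Luc7l the groups overlap.

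Leng8 had the widest separation. The gene (ENSRNOG00000018642) lies on the minus strand of chromosome 1 from 73722088 to 73733788 in the table's coordinates, whose build is not named. Leng8 stood at 245, 243 and 231 CPM in the ACS libraries, at 158, 144 and 134 CPM in the DCS libraries, and at 114, 119 and 128 CPM in the control libraries. None of the 3 groups overlapped another, and the DCS libraries lay between the others. The log2 fold change of ACS against control was 0.99 (standard error 0.06), which is 1.99-fold on the linear scale. An antisense neighbour, Leng9, overlaps it by 544 bases and averaged 3.68 CPM in control libraries, and whether strand was used in counting is not stated.

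Clasrp encodes an SR-like protein that binds the splicing factor kinase Clk4 in mouse. It had 54.2, 55.3 and 56.2 CPM in ACS, 40.0, 36.8 and 35.2 CPM in DCS, and 30.3, 29.1 and 35.8 CPM in control neurons. The ACS libraries were all higher than both other groups, whereas the highest control library overlapped the DCS range. Its log2 fold change in ACS against control was 0.80 (standard error 0.08).

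Akap8l encodes a nuclear zinc finger protein related to the A-kinase anchoring protein Akap8. Its levels were 50.5, 47.9 and 49.8 CPM in ACS, 35.9, 35.6 and 31.6 CPM in DCS, and 31.2, 31.1 and 30.2 CPM in control neurons. The ACS group stood apart from both others, with a log2 fold change of 0.68 (standard error 0.06) against control. Akap8l shares 11749 bases of its span, on the same strand, with its paralog Akap8, so fragments of the pair could be exchanged in counting. Akap8 itself averaged 123 ± 3.76 CPM in ACS and 103 ± 2.65 CPM in control neurons (SD, n = 3 each), and its log2 fold change was 0.26.

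The promoters of these 3 genes, and of Son as a gene whose level did not separate, are shown because motifs bound by activity-regulated factors are often looked for there. Each window runs from 250 bases before to 50 after the start in RefSeq (build GRCr8, not the table's coordinates), is printed along the gene's own strand, and has the AP-1 site (TGANTCA) and the CRE half-site (TGACG, or CGTCA when it lies on the other strand) in capitals. The locations are chr1:79124689-79124988 (minus) for Leng8, chr1:88384294-88384593 (minus) for Clasrp, chr7:12012762-12013061 (minus) for Akap8l and chr11:44377726-44378025 (plus) for Son.
Leng8: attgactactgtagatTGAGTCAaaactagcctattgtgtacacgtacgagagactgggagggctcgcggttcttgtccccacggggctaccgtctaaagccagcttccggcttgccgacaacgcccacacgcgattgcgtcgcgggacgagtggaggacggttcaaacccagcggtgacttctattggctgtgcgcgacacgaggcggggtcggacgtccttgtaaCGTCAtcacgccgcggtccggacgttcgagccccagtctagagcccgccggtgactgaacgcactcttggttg
Clasrp: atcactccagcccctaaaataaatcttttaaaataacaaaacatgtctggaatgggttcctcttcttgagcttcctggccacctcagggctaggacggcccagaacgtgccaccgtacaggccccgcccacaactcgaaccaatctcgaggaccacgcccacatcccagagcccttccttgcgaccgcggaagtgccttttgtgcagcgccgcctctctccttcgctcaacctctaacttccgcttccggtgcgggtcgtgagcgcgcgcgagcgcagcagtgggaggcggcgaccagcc
Akap8l: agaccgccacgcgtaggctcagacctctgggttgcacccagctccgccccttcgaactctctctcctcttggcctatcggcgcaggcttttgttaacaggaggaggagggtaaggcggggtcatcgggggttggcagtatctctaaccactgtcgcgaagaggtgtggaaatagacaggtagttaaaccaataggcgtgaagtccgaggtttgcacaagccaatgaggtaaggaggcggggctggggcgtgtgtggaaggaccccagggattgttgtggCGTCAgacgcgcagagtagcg
Son: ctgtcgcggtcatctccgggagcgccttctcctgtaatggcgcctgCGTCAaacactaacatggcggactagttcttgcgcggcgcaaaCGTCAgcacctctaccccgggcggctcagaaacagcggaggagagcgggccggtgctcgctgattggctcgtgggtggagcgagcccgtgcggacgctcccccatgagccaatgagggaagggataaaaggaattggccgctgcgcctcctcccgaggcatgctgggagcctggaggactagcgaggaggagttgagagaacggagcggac

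RefSeq windows were matched for 8 of the 10 genes, and Srrm2 and Luc7l had none. Both strands were searched. The AP-1 letters occurred in 1 of the 8 windows, that of Leng8, at position -234 from the start, against 4.95% of the 11095 windows of tested genes. The full CRE (TGACGTCA, which contains the half-site) was in 0 of the 8 windows, against 3.06% of all, and the half-site was in 5 of 8 (Leng8, Akap8l, Pnisr, Pabpn1 and Son), against 30.7% of all. Son, whose level did not separate, thus had the half-site at 2 places, and Clasrp had none. An ETS core (CCGGAAG) was in 4 of 8 (Leng8, Clasrp, Pnisr and Sfswap), against 16.1%, and a YY1 core (ATGGCG) in 4 of 8 (Pnisr, Sfswap, Son and Pabpn1), against 16.5%. The CCAAT box (CCAAT) was in 6 of 8, against 37.4%, the GC box (GGGCGG) in 4 of 8, against 61.1%, and the E-box (CACGTG) in 0 of 8, against 9.02%. These are matches of letters in short windows and were not tested for binding. The GC content of the windows ranged between 44.3% for Pnisr and 68.7% for Srrm1, beside a median of 60.7% over all windows of tested genes.

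Among the proteins that act directly in splicing, Sfswap is the mammalian relative of the fly suppressor of white apricot, which in Drosophila controls the splicing of its own transcript. Sfswap had 139, 144 and 139.7 CPM in ACS, 122, 116 and 108 CPM in DCS, and 106, 106 and 109 CPM in control neurons. Its ACS libraries lay above all others, with a log2 fold change of 0.40 (standard error 0.05) against control. The row pools 9 annotated transcripts, among them some classed as retaining an intron, so a change in a single form cannot be told from a change in all. An entry on the same strand, AABR07036022, overlaps Sfswap by 711 bases and averaged 1.38 CPM in control libraries.

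Pnisr encodes an SR-rich partner of pinin, a protein of speckles and cell junctions. It had 276, 259.8 and 270.2 CPM in ACS, 238, 207 and 205 CPM in DCS, and 205, 199 and 186 CPM in control neurons. The ACS range was clear of the others, and DCS replicate 1 stood above the other DCS libraries. The log2 fold change against control was 0.45 (standard error 0.06).

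Pabpn1 encodes the nuclear poly(A)-binding protein, which coats the tail of new transcripts and whose alanine expansion causes oculopharyngeal muscular dystrophy in people. Its levels were 186, 175 and 188 CPM in ACS, 139, 138 and 149 CPM in DCS, and 140.5, 136 and 138 CPM in control neurons. Here the DCS and control libraries overlapped, and the ACS libraries lay above both. The log2 fold change against control was 0.40 (standard error 0.05).

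Srrm2, a scaffold gene and the most abundant of the 10 in CPM and FPKM, had 1445, 1419.6 and 1456 CPM in ACS, 1190.2, 1123 and 1146 CPM in DCS, and 1188, 1179.7 and 1164 CPM in control neurons. Its log2 fold change of ACS against control was the smallest of the 7 at 0.29 (standard error 0.03), with ACS libraries clear of all others. A microRNA entry, Mir5125, lies within Srrm2 over 79 bases and averaged 1.43 CPM in control libraries.

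Son, the other scaffold protein, had 474, 470.0 and 498 CPM in ACS, 476, 454 and 462 CPM in DCS, and 491, 482 and 464 CPM in control neurons. All 3 groups overlapped, and the log2 fold change of ACS against control was 0.00 with a 95% interval of -0.08 to 0.09. Srrm1 likewise overlapped between groups, with 225, 211 and 237 CPM in ACS, 208, 206 and 223 CPM in DCS, and 228, 219.8 and 214 CPM in control neurons. Its interval against control was -0.09 to 0.14 around 0.03.

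Luc7l is a relative of yeast LUC7, a protein of the U1 particle that marks the start of introns. It had 59.4, 55.0 and 60.1 CPM in ACS, 54.1, 58.5 and 61.5 CPM in DCS, and 68.1, 66.1 and 58.7 CPM in control neurons. The groups overlapped at control replicate 3, and the log2 fold change of ACS against control was -0.14 with a 95% interval of -0.30 to 0.02.

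Counted over the 10 genes, 7 had an adjusted p under 0.05 in ACS against control and were higher, where 2.83% of all tested genes were called higher, and 0 were called lower, where 1.33% were. Their libraries did not overlap and were higher in the same 7, where 14.0% of all tested genes were. Since the genes were chosen by this contrast, these shares describe the choice and are read no further. The median log2 fold change was 0.40 over the 10 genes and -0.0029 over all tested genes. Together the 10 genes took 0.307 to 0.317% of the counts in ACS libraries, 0.253 to 0.265% in DCS libraries and 0.255 to 0.258% in control libraries. Srrm2 gave the largest part of any single gene.

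**Figure D2:**
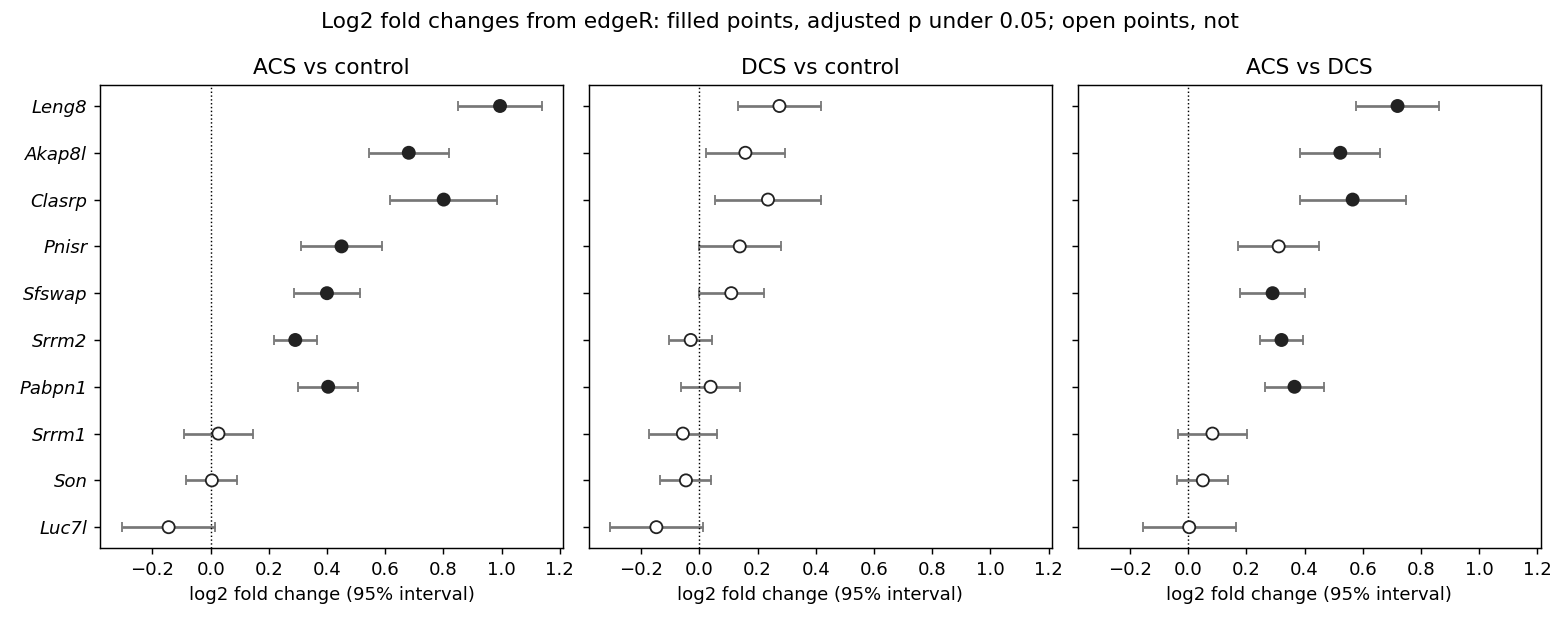
Log2 fold changes (x axis) of the 10 genes in ACS against control, DCS against control and ACS against DCS, with 95% intervals from edgeR. Filled points had an adjusted p under 0.05. The point of Leng8 is farthest right in all 3 panels, at 0.99, 0.27 and 0.72, and no point is filled for DCS against control.

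The comparison of ACS with DCS sets the kinds of current side by side at equal current and duration. By the study's text they also came from different devices, a function generator for ACS and a programmable stimulator for DCS. Kind of current and device therefore cannot be told apart. The comparison of ACS with DCS was not the contrast that chose the genes, but it shares the ACS libraries with that contrast. A choice by those libraries can raise the values here too, so the counts and p-values below are no independent test. Of the 10 genes, 6 were higher in ACS than in DCS by edgeR's quasi-likelihood test, where 0.510% of all tested genes were called higher, and 0 were lower, where 0.123% were. Leng8 was higher by 0.72 on the log2 scale (standard error 0.06, adjusted p = 0.00149 by edgeR), or 1.65-fold. Clasrp was higher by 0.57 (edgeR adjusted p = 0.0187) and Akap8l by 0.52 (edgeR adjusted p = 0.00556).

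Smaller differences were found for Pabpn1 at 0.37 (edgeR adjusted p = 0.00872), Srrm2 at 0.32 (edgeR adjusted p = 0.00453) and Sfswap at 0.29 (edgeR adjusted p = 0.0422). Pnisr, at 0.31, did not pass in edgeR (adjusted p = 0.0677) and passed in DESeq2 (adjusted p = 0.000127). All ACS libraries were higher than all DCS libraries for 7 genes, these 6 and Pnisr, where 11.2% of all tested genes were so. Srrm1, Son and Luc7l had log2 fold changes of 0.08, 0.05 and 0.00, with 95% intervals of -0.03 to 0.20, -0.04 to 0.14 and -0.16 to 0.16. The median over the 10 genes was 0.32, against -0.0021 over all tested genes.

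The calls of ACS against DCS did not all rest equally on every library. Leng8, Akap8l and Srrm2 were called whichever library was left out. Pabpn1 was lost without ACS replicate 1 (edgeR adjusted p = 0.0556) or DCS replicate 2 (0.0558). Clasrp was lost without ACS replicate 1, 2 or 3 (edgeR adjusted p = 0.0681, 0.0911 and 0.0840) and without DCS replicate 2 or 3 (0.110 and 0.0619). Sfswap was lost without any ACS library (0.136, 0.163 and 0.111 for replicates 1 to 3), DCS replicate 2 or 3 (0.152 and 0.0737) or control replicate 1 or 2 (0.0729 and 0.0764). It was also not called by limma (adjusted p = 0.0780 and 0.0771 at pseudocounts of 0.1 and 1 FPKM) or by edgeR on the 6 libraries of ACS and DCS alone (0.0660). Pnisr was called without DCS replicate 1 (0.0280) or control replicate 3 (0.0483). The number called fell to 3 without ACS replicate 1 and to 3 without DCS replicate 2. In these fits 28 and 27 of all tested genes were called higher or lower, beside 103 with all libraries. The log2 fold changes themselves stayed between 0.24 and 0.33 for Sfswap and between 0.52 and 0.62 for Clasrp.

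Under DCS, a comparison that shares the control libraries with the choice of genes, 0 of the 10 genes were called in either direction by edgeR, where 0.00614% of all tested genes were called higher and 0.00614% lower. DESeq2 called 1, Leng8 (adjusted p = 0.0208), and limma called 0. At an unadjusted p under 0.05 there were 3 of the 10, beside 1154 of the 16284 tested genes. These were Leng8 at 0.27 on the log2 scale, Clasrp at 0.24 and Akap8l at 0.16, each with an edgeR adjusted p = 0.692. Their 95% intervals were 0.13 to 0.42, 0.05 to 0.42 and 0.02 to 0.29.

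Without overlap, 3 genes were higher in all DCS than in all control libraries (Leng8, Akap8l and Pnisr), where 5.59% of all tested genes were. For Pnisr that separation was narrow, with the lowest DCS library at 205.4 CPM and the highest control library at 205.2 CPM. Srrm2 and Pabpn1, which were higher in ACS than in either other group, had log2 fold changes of -0.03 and 0.04 in DCS against control, with 95% intervals of -0.10 to 0.04 and -0.06 to 0.14. The median over the 10 genes was 0.07, beside 0.0027 over all tested genes.

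**Figure D3:**
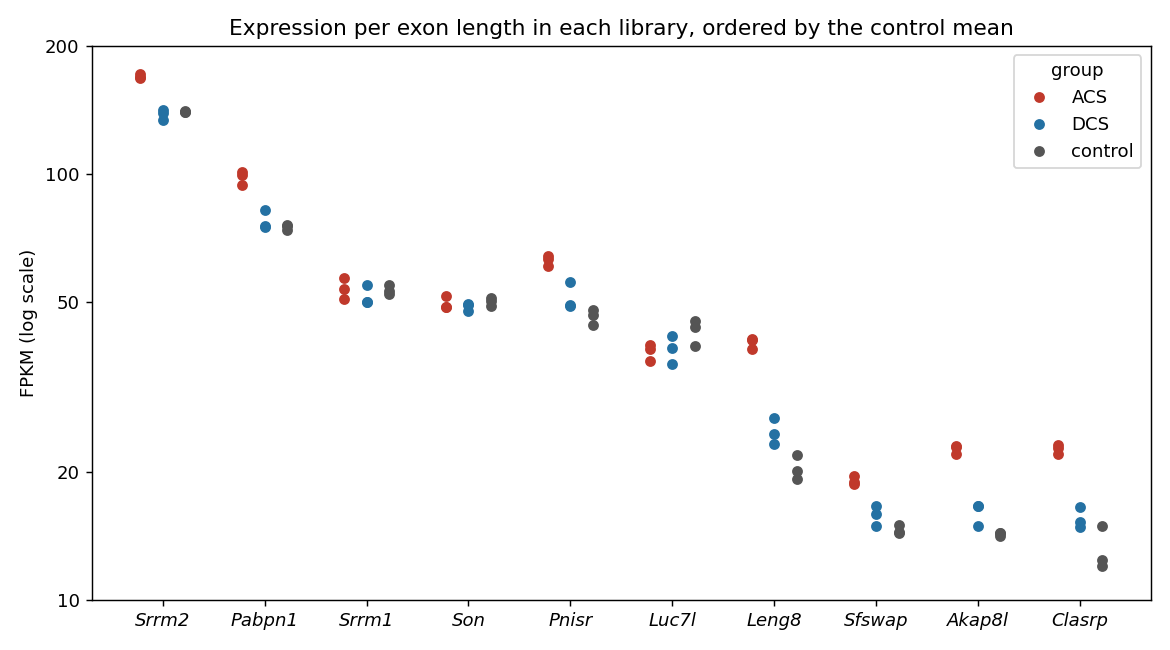
Levels of the 10 genes in FPKM (y axis, log scale) in each library, ordered by the control mean, with ACS, DCS and control side by side for each gene. Leng8 moves up to the range of Luc7l under ACS, and the lowest 3 genes in control lie below 20.4 FPKM, the control mean of Leng8.

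Per exon length the genes spanned about an order of magnitude, and some changed places. In FPKM, Srrm2 averaged 169.7 ± 2.15 in ACS, 138 ± 3.63 in DCS and 140.1 ± 0.439 in control neurons (SD, n = 3 each), the highest of the 10 in every group. Pabpn1 was the next at 98.3 ± 3.57, 77.6 ± 4.16 and 75.04 ± 1.07 FPKM in ACS, DCS and control. In ACS neurons Pnisr followed at 62.7 ± 1.70 FPKM, above Srrm1 (53.8 ± 3.13) and Son (49.7 ± 1.65). In control neurons, Srrm1 (53.4 ± 1.37 FPKM) and Son (50.1 ± 1.02) both stood above Pnisr (46.3 ± 1.91).

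Leng8 reached 40.2 ± 1.22 FPKM in ACS, against 24.8 ± 1.77 in DCS and 20.4 ± 1.31 in control neurons. In ACS it overlapped Luc7l (38.3 ± 1.76), which in control neurons was at 42.7 ± 2.97 FPKM. The lowest genes in control were Sfswap (14.6 ± 0.362), Akap8l (14.3 ± 0.137) and Clasrp (13.1 ± 1.59), whose libraries overlapped. In ACS, Akap8l (22.6 ± 0.534 FPKM) and Clasrp (22.6 ± 0.509) did not differ beyond their spread, and both lay above Sfswap (19.0 ± 0.452).

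Over the 9 libraries, log2 CPM of Leng8 ran in parallel with Sfswap (Pearson r = 0.987), Clasrp (0.986), Akap8l (0.983), Pnisr (0.944), Pabpn1 (0.924) and Srrm2 (0.919). It had r = 0.183 with Srrm1, 0.146 with Son and -0.565 with Luc7l. These coefficients describe 9 points that share libraries and fall into 3 groups, and carry no test. The genes were chosen by ACS against control, so the choice itself favours high coefficients among those higher in ACS. It also favours genes high in ACS as those most like the mean of the 10. By Pearson r, genes among those most like that mean were Nr4a2 (r = 0.982), Eml5 (0.970), Zmym3 (0.964) and Emx1 (0.961). Nr4a2, an activity-induced nuclear receptor, averaged 52.1 ± 5.37 CPM in ACS, 34.2 ± 1.75 CPM in DCS and 36.5 ± 3.27 CPM in control neurons (SD, n = 3 each).

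**Figure D4:**
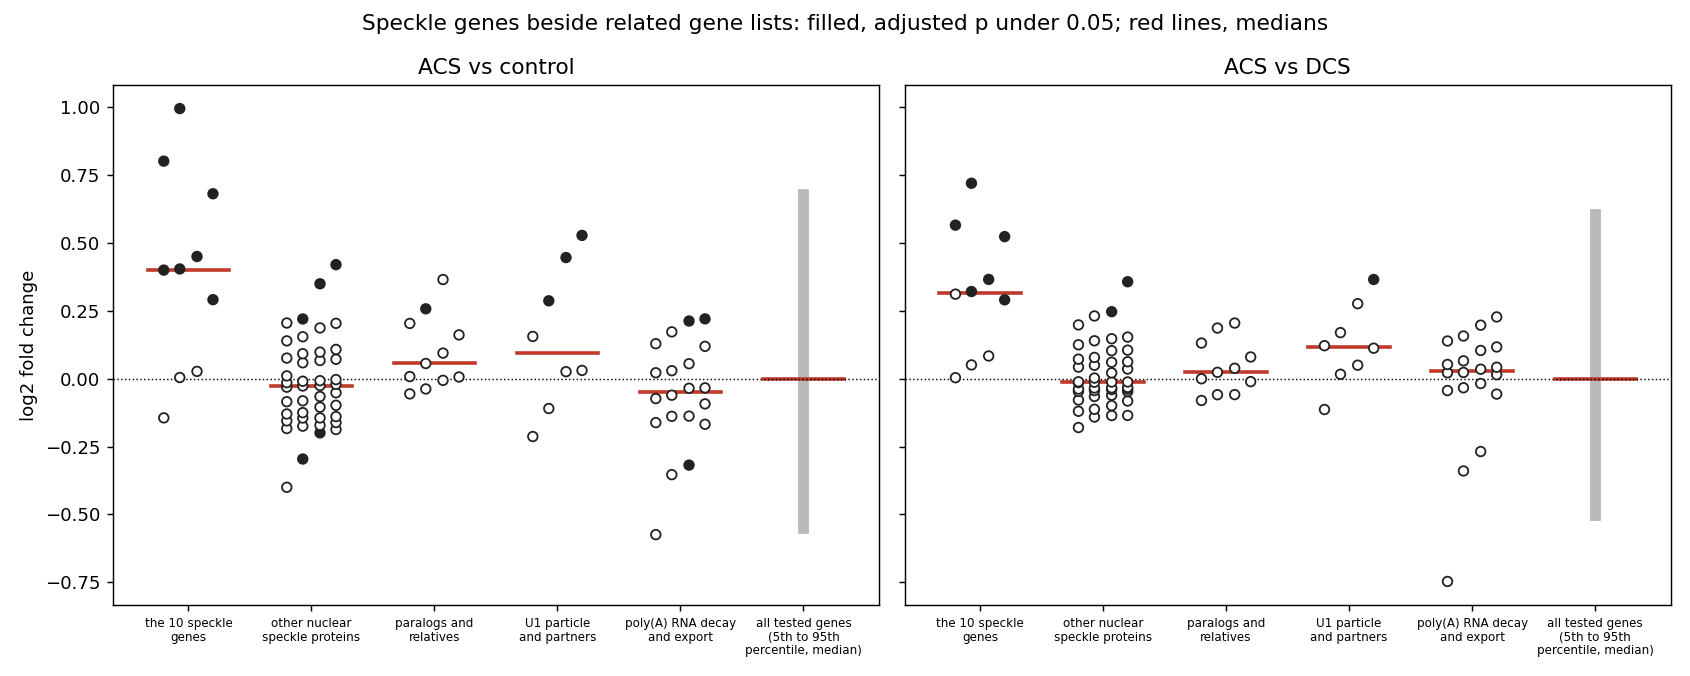
Log2 fold changes (y axis) in ACS against control (left) and ACS against DCS (right) of the 10 speckle genes, 4 related lists and the range of all tested genes (grey bar, 5th to 95th percentile). Filled points had an adjusted p under 0.05, and red lines are medians. The median of the 10 genes, chosen by their values in ACS against control, is 0.40 on the left and 0.32 on the right. The other speckle proteins run from -0.40 to 0.42 on the left, with a median of -0.026. The choice itself favours this gap, which was not tested.

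Other speckle proteins were looked at as a list of 48 genes, of which 44 were tested. This list and the shorter ones below were drawn up with earlier results of these data known. Their counts describe these data and are no independent test. In ACS against control 3 were higher and 2 lower, which is 6.82% and 4.55% of the list beside 2.83% and 1.33% of all tested genes, and 39 were not called, with a median log2 fold change of -0.026. Srsf5, an SR protein, was higher by 0.42 (206 ± 10.7 CPM in ACS and 154 ± 8.22 CPM in control, SD, n = 3 each, edgeR adjusted p = 0.00483). Ddx39b, an RNA helicase of splicing and export, was higher by 0.35 (edgeR adjusted p = 0.00179), and Nktr, a cyclophilin with an SR-rich tail, by 0.22 (edgeR adjusted p = 0.0460). Srsf10, an SR protein that represses splicing when dephosphorylated, was lower by 0.30 (log2 fold change -0.30, edgeR adjusted p = 0.0210), and so was Prpf6, a protein of the tri-snRNP (-0.20, edgeR adjusted p = 0.0351).

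Srsf5 and Ddx39b were called whichever library was left out. Nktr and Prpf6 were called in 2 of those 9 fits and Srsf10 in 4 of 9. The number of other speckle proteins called was 2 without ACS replicate 1, 2 or 3 or control replicate 2, 3 without DCS replicate 1 or 2, and 11 without control replicate 3. The number called over all tested genes moved too, from 678 with all libraries. It was 138 to 303 in the fits with 2, 413 and 457 in those with 3, and 1431 without control replicate 3. In ACS against DCS 2 were higher (Srsf5 at 0.36 and Ddx39b at 0.25, edgeR adjusted p = 0.0307 and 0.0224) and 0 lower, beside 0.510% and 0.123% of all tested genes. Leaving out 1 library took that number to between 0 and 2, with 0 without ACS replicate 1 or 2, DCS replicate 2 or 3 or control replicate 2, and 1 without ACS replicate 3 or DCS replicate 1. Over all tested genes, fits with 1 library left out called 27 to 184, beside 103 with all libraries. In DCS against control edgeR, DESeq2 and limma each called 0 of the 44, and without control replicate 3 edgeR called 1 (47 over all tested genes). In edgeR 5 of the 44 had an unadjusted p under 0.05 in DCS against control, beside 1154 of the 16284 tested genes. In ACS against control it was 18 of the 44, beside 3390 of the 16284, and 16 of the 44 had log2 fold changes above 0. The wider Gene Ontology list of nuclear speck, with the 10 genes removed, had 307 tested genes, of which 14 (4.56%) were higher and 7 (2.28%) lower in ACS than in control, beside 2.83% and 1.33% of all tested genes, with a median of -0.027.

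Among 11 tested paralogs and relatives of the 10 genes, 1 was called higher in ACS against control (2.83% of all tested genes were), Akap8 at 0.26 (edgeR adjusted p = 0.0124), and it was called in 6 of 9 fits with 1 library left out (adjusted p up to 0.0648). Akap8 shares 11749 bases with Akap8l on the same strand, so its call may not be separate from that of Akap8l. Srrm3 and Srrm4, neural relatives of Srrm1 and Srrm2 that promote the inclusion of microexons, had log2 fold changes of 0.36 and 0.20 and did not pass (edgeR adjusted p = 0.0507 and 0.0638). The relatives of Luc7l were at -0.01 (Luc7l2) and -0.04 (Luc7l3), and the cytoplasmic poly(A)-binding proteins at -0.06 (Pabpc1) and 0.01 (Pabpc4), none of which passed. The median of these 11 was 0.06.

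Of 8 genes of the U1 particle and its partners, 3 were higher and 0 lower in ACS than in control (2.83% and 1.33% of all tested genes), with a median of 0.09. Snrnp70, the U1 protein that binds the particle's RNA, had 400.0 ± 13.5 CPM in ACS, 311 ± 15.1 CPM in DCS and 278 ± 11.7 CPM in control neurons (SD, n = 3 each). The log2 fold change was 0.53 against control (edgeR adjusted p = 0.000828) and 0.37 against DCS (edgeR adjusted p = 0.0120). It was called against control in 9 of 9 fits with 1 library left out, and against DCS in 6 of 9. Tia1, which recruits U1 to weak splice sites, was at 0.45 (edgeR adjusted p = 0.0118, called in 6 of 9 fits), and the helicase Ddx17 at 0.29 (edgeR adjusted p = 0.0474, called in 1 of 9).

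Of 20 genes of nuclear poly(A) RNA decay and export, in which Pabpn1 takes part, 2 were higher and 1 lower in ACS than in control (2.83% and 1.33% of all tested genes), with a median of -0.05. The export receptor Nxf1 was at 0.22 (edgeR adjusted p = 0.0308), the nuclear exosome's Exosc10 at 0.21 (edgeR adjusted p = 0.0449) and Sem1 at -0.32 (edgeR adjusted p = 0.0412). They were called in 3, 2 and 2 of the 9 fits with 1 library left out. Of 11 listed genes whose RNA is known to be retained in the nucleus in part, 5 were in the table and tested. Of these, 1 was higher and 1 lower in ACS than in control (2.83% and 1.33% of all tested genes), with a median of -0.04. Ogt was higher at 0.21 (edgeR adjusted p = 0.0272, 4 of 9 fits) and Clk1 lower. Clk1, a kinase that phosphorylates SR proteins, had 45.6 ± 1.74 CPM in ACS, 63.9 ± 1.48 CPM in DCS and 67.7 ± 2.99 CPM in control neurons (SD, n = 3 each). Its log2 fold change was -0.57 against control (edgeR adjusted p = 0.000717) and -0.49 against DCS (edgeR adjusted p = 0.00456), and both were called in 9 of 9 fits.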

How the data were processed

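Polyadenylated RNA was measured in 9 libraries (3 ACS, 3 DCS, 3 control), grouped by their labels. The authors trimmed the reads (fastp in the study's methods, cutadapt 1.9 in the submitters' processing notes), aligned them with HISAT2 (2.0.4) to a genome written as Rattus norvegicus GRCh38, and quantified them with StringTie (1.3.4d). The notes also name UMI-tools, DESeq2 and edgeR without a role. The deposited FPKM values are fragments divided by exon length in kilobases and by mapped reads. The deposited estimated counts, also made by the authors, are whole numbers, of which 34.1% of those between 1 and 15 are 4, 8 or 12 (20% if even), so the totals may exceed the number of fragments. No build is named in the table, and whether strand was used in counting is not given in the sources used here.

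Counts were scaled by TMM and tested with the quasi-likelihood F test of edgeR 4.0.16 (R 4.3.3) in 1 fit over 9 libraries, without a replicate block. The filter (filterByExpr, minimum count 10, minimum total 15) kept 16284 of 32623 entries, and Benjamini-Hochberg adjustment ran over all 16284, with a threshold of 0.05. CPM were scaled by TMM, log2 CPM used a prior count of 2, and intervals cover 95%. The alternatives were no filter, a mean FPKM of at least 1, other size factors, DESeq2 1.42.0, limma 3.58.1 on log2(FPKM + 0.1) or log2(FPKM + 1), the 6 libraries of a comparison alone, a replicate block, counts divided by 4, and leaving out each library. The 10 genes and the lists were chosen with earlier results of these data known. Named were all 10 genes, the called genes of a list (5 or fewer), paralogs, and the 5 genes most like the mean of the 10, of which 1 is not reported here. RefSeq sequences (GRCr8) were matched by symbol.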

Additional observations from a re-analysis of the deposited data

How the results depend on the processing

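Of 180 values per comparison (10 genes, 18 settings), 173 kept their direction and side of the threshold in ACS against control, 178 in DCS against control and 152 in ACS against DCS, where 19 calls were lost and 3 gained. The 7 genes called in ACS against control were called in all 18 settings, which refit the contrast that chose them and so say nothing of stability. All reversals were of values near 0. In ACS against control, Son was at -0.0047 with no filter on low counts and at -0.010 with limma at either pseudocount (-0.0103 and -0.0101), and with 1 library left out it lay between -0.023 and 0.020, and Srrm1 between -0.017 and 0.069. In ACS against DCS, Luc7l was at -0.0030 with no filter and at -0.0191 and -0.0187 with limma, and between -0.046 and 0.046 with 1 library left out. In DCS against control, Pabpn1 lay between -0.0027 and 0.060 with 1 library left out.

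DESeq2 called 10 of the other speckle proteins in ACS against control, 4 in ACS against DCS and 1 of the 10 genes in DCS against control. Over all genes it called 1640, 622 and 36 in these comparisons, beside 678, 103 and 2 in the main fit. Both limma settings called 1 other speckle protein in ACS against DCS. Over all genes they called 65 and 64 there, at pseudocounts of 0.1 and 1 FPKM. With 1 library left out, between 3 and 7 of the 10 genes were called in ACS against DCS, and of the other speckle proteins between 2 and 11 in ACS against control, between 0 and 2 in ACS against DCS and between 0 and 1 in DCS against control. Over all genes, such fits called 138 to 1431 in ACS against control. They called 27 to 184 in ACS against DCS and 1 to 47 in DCS against control. Deviations from the group means had correlations of -0.0532 to 0.0631 between same-numbered libraries and -0.061 to 0.0416 between others. With 3 libraries per group these values cannot exclude a pairing by number, and the main fit used none. With a replicate block, 7 of the 10 genes were called in ACS against control, 4 in ACS against DCS and 0 in DCS against control. Lost in ACS against DCS were Clasrp (edgeR adjusted p = 0.0501) and Sfswap (0.0748). Of the other speckle proteins, 1 was called in ACS against DCS. Over all genes this fit called 475, 59 and 1 in the same order of comparisons, beside 678, 103 and 2 in the main fit. The cause of these differences was not tested.

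With 3 libraries per group, small differences of single genes can be missed, and a p that misses the threshold does not show equality. The table gives levels per gene, so splicing, retained introns and protein were not measured.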
